A study of Mus musculus with 6 samples.

Results

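Glycogen metabolism is represented here by 9 genes, matched by symbol among the 54838 genes of the deposited count tables: Gys1, Gbe1, Gyg, Ugp2 and Ppp1r3c of glycogen synthesis, Pgm1 and Pgm2 of sugar phosphate interconversion, and Pygb and Pygl of glycogen breakdown. They were chosen by function with the GSK126 against DMSO results of these libraries known, so their values in that comparison are given as a description and not as a test. The libraries come from B16F10, a pigmented mouse melanoma cell line of C57BL/6 origin, cultured with the vehicle DMSO (3 samples) or with GSK126 at 10 µM (3 samples). GSK126 blocks EZH2, the histone methyltransferase of Polycomb repressive complex 2. The labels name either of a pair of culture media without saying which sample had which, and give no treatment time. Nothing in them shows that replicates were grown as separate cultures, so the p-values rest on a spread between samples that may be technical. In such bulk samples, fewer cells of a type and less RNA per cell cannot be told apart.

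Glycogen is a branched glucose polymer that many cells store as a reserve of glucose. Glucose 6-phosphate is converted by phosphoglucomutase to glucose 1-phosphate, activated by UGP2 to UDP-glucose, started on the primer protein glycogenin, extended by glycogen synthase and branched by GBE1. Breakdown runs through glycogen phosphorylase, which releases glucose 1-phosphate. Both directions pass through phosphoglucomutase, and Gys1, Gbe1 and Pgm1 are known targets of the hypoxia-inducible factors (HIF).

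The library totals ran from 13594939 to 14713373 reads, and 13601 genes had enough reads to be tested. All 7 melanocytic markers checked were abundant, with at least 4206 reads each in every library and a summed level of 21400 to 22600 CPM (reads scaled to the TMM-adjusted size of each library) with DMSO and 22800 to 23900 with GSK126. Of these 7, 4 were called higher and 1 lower with GSK126, where 5.87% of all tested genes were called higher and 5.18% lower. The part of these markers in the results that follow was not tested. The 5 immune markers summed to at most 1.12 CPM, the 4 endothelial markers to at most 0.698, the 4 keratinocyte markers to at most 0.142 and the 6 muscle and liver markers to at most 0.419, while 5 fibroblast markers summed to 17.1 to 25.6, mainly from Col1a2. GSK126 replicate 3 lay away from the other GSK126 libraries along principal component 2, which held 18.7% of the variance.

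Promoter sequences are shown for 4 members whose behaviour differed: the mutase pair Pgm1 and Pgm2, Gys1 and Pygl. Each window runs from 250 bases before to 50 bases after the RefSeq start on GRCm38.p6, written 5′ to 3′ on the gene's strand, at chr4:99929201-99929500 (plus strand) for Pgm1, chr5:64092689-64092988 (plus) for Pgm2, chr7:45434589-45434888 (plus) for Gys1 and chr12:70227634-70227933 (minus) for Pygl, where the RefSeq start lies inside the gene span used below. Capitals mark 3 motifs on either strand. The motif ACGTG and the motif GCGTG are core forms of the element that HIF binds. The motif CACGTG is an E-box read by MITF and its relatives, and it contains ACGTG on both strands.
Pgm1: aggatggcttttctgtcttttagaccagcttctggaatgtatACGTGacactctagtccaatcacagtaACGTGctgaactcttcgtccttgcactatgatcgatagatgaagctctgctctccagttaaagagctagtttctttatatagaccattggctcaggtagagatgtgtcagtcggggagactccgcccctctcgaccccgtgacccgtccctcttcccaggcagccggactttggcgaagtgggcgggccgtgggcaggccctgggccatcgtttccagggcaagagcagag
Pgm2: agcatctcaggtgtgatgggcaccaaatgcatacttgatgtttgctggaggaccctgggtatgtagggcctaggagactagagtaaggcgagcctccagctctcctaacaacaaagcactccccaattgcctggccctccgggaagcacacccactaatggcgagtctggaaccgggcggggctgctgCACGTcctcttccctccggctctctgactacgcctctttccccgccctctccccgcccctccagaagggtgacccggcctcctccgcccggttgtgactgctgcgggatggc
Gys1: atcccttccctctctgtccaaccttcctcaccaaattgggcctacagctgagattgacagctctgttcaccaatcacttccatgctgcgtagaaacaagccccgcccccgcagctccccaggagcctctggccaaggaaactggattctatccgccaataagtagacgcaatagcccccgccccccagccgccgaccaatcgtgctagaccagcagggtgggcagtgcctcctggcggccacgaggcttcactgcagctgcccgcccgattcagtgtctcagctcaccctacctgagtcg
Pygl: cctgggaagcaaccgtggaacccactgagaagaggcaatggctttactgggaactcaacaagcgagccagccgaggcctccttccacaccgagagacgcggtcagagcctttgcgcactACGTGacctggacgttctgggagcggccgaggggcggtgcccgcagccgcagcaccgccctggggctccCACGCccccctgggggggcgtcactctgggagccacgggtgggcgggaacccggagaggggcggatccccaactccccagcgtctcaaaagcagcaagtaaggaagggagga
Counted from the start site, Pgm1 held ACGTG at -208 and -181, Pgm2 held it once on the minus strand at -62, and Pygl held ACGTG at -131 and GCGTG on the minus strand at -62. The Gys1 and Gbe1 windows held none of these letters. All 9 members had a window in the table, 10 windows in all because Ugp2 has alternative starts. ACGTG was in 7 of the 10, against 19.6% of 32851 windows of all genes and 25.8% of those of tested genes. GCGTG was in 5 of the 10, against 32.4% and 50.9%, and CACGTG in 2 of the 10 (Gyg and Ppp1r3c), against 7.15% and 10.0%. Pgm2, which did not pass the test, carried a match, and Gys1 and Gbe1, which did, carried none. These are matches of letters and not measured binding sites, and their bearing on the changes with GSK126 was not tested.

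Of the 9 genes, 8 had enough reads to be tested, and 7 of them were higher with GSK126 (by edgeR's quasi-likelihood fit, with p adjusted after Benjamini and Hochberg over all 13601 genes and a threshold of 0.05), 0 were lower and 1 did not pass. Over all genes tested, 5.87% were called higher and 5.18% lower. The same 7 members had groups that did not overlap, with every GSK126 sample above every DMSO sample, as had 17.6% of all tested genes. Without regard to direction, 34.4% of all tested genes had groups that did not overlap, and 11.1% were called. The median log2 fold change of the 8 was 0.42, against 0.0 over all genes tested. Because this contrast was known when the genes were chosen, nothing is read from these shares.

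**Figure D1:**
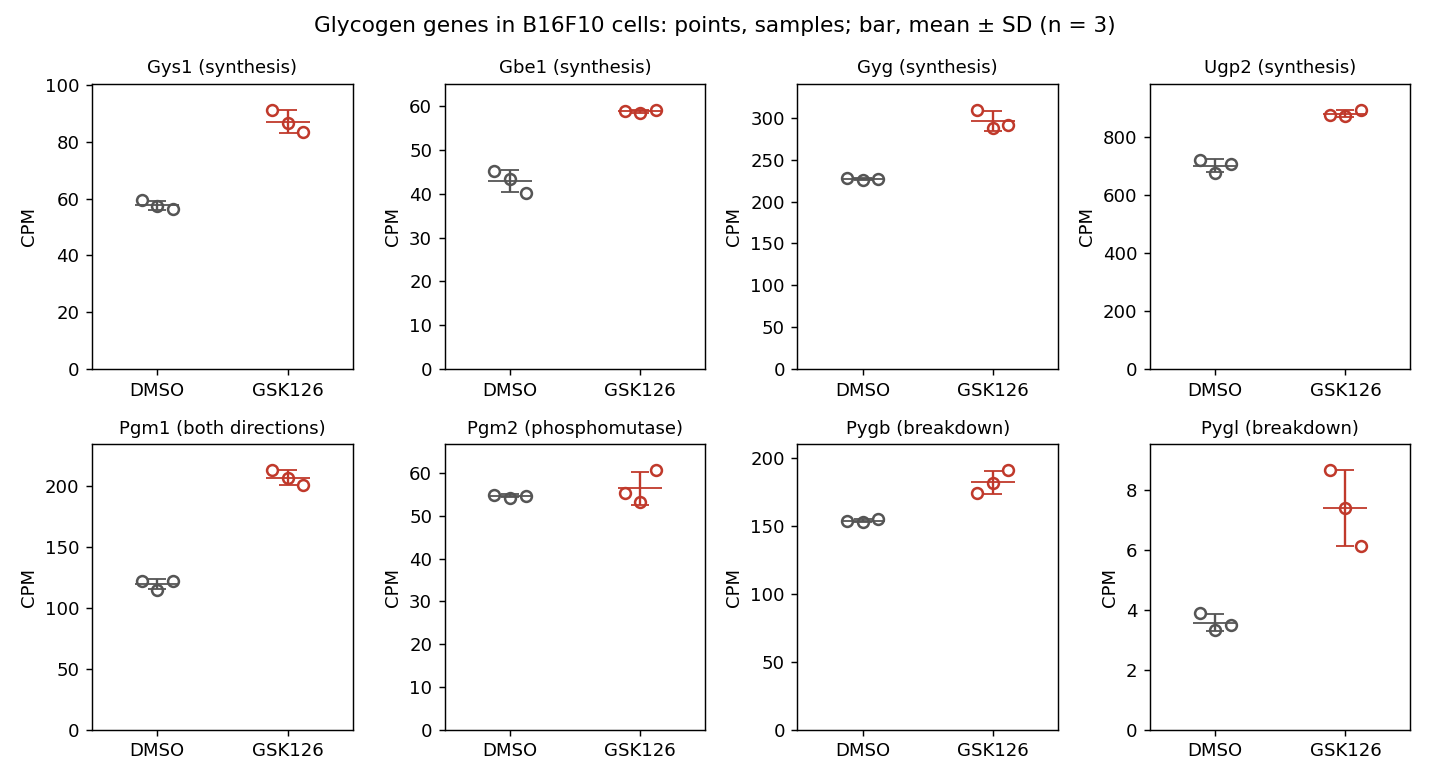
Level of each tested glycogen gene (y axis, CPM on TMM-scaled library sizes, from 0) in the 3 DMSO and 3 GSK126 samples; points are samples and bars are the mean ± SD. In every panel but that of Pgm2, the 3 GSK126 samples lie above the 3 DMSO samples.

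The 4 tested synthesis genes rose between 1.26-fold and 1.51-fold. Gys1, which encodes the muscle-type glycogen synthase that extends the chains (GRCm38 chromosome 7, 45434844 to 45456619), stood at 59.4, 57.5 and 56.3 CPM with DMSO and at 91.4, 86.6 and 83.5 CPM with GSK126. The lowest GSK126 sample was 1.41 times the highest DMSO sample, and the log2 fold change was 0.59 (SE 0.06). This value carries a limit of annotation: Gys1 shares 310 bp of exons, 6.47% of its exon bases, with Ruvbl2 on the opposite strand, and whether the counting used strand was not given in the sources used here, so reads of the shared bases cannot be told apart. Ruvbl2, which encodes an AAA+ ATPase, fell (-0.28 on the log2 scale, SE 0.06, edgeR adjusted p = 0.0309), and the summed reads of both genes did not pass (0.08, SE 0.05, adjusted p = 0.378 by edgeR). That sum takes in all reads of Ruvbl2, which had 143% of the reads of Gys1, and not only those of the shared bases. It therefore cannot show how much of the change in Gys1 comes from the shared bases. How the reads of the shared bases were assigned was not tested.

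Gbe1, the branching enzyme (chromosome 16, 70313949 to 70569716), had 45.2, 43.5 and 40.2 CPM with DMSO and 59.0, 58.5 and 59.2 CPM with GSK126. The GSK126 samples lay close together, with a coefficient of variation of 0.661% against 5.88% in the DMSO samples, and the log2 fold change was 0.45 (SE 0.06). Gyg, the glycogenin that primes each particle (chromosome 3, 20122084 to 20155317), had 228, 226 and 227 CPM with DMSO and 310, 288 and 291 CPM with GSK126. Its DMSO samples differed by less than 1.0% around their mean (coefficient of variation 0.519%), and the log2 fold change was 0.38 (SE 0.04).

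Ugp2, which makes UDP-glucose for glycogen and also for glycosylation (chromosome 11, 21321138 to 21371201), was the most abundant of the genes. It had 719, 676 and 704 CPM with DMSO and 873, 872 and 893 CPM with GSK126, a log2 fold change of 0.33 (SE 0.04). The groups did not overlap, and the lowest GSK126 sample was 1.21 times the highest DMSO sample. Ppp1r3c, which encodes the phosphatase-targeting subunit PTG that activates glycogen synthase (chromosome 19, 36731737 to 36736653), was practically absent: 1 read in DMSO replicate 2 and 0 reads in the other 5 libraries. A count of 0 allows up to 3 reads, or 0.204 to 0.221 CPM by library (counting error only), so the gene was not tested and no fold is given.

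The phosphoglucomutase genes parted. Pgm1, the main phosphoglucomutase (chromosome 4, 99929414 to 99987294), had 122, 115 and 122 CPM with DMSO and 213, 207 and 201 CPM with GSK126. Every GSK126 sample was at least 1.65 times every DMSO sample, and the log2 fold change of 0.79 (SE 0.05) was the second largest among the 8 genes, after Pygl. Pgm1 shares 398 bp of exons (13.6%) with Itgb3bp on the opposite strand, and the summed reads of both had a log2 fold change of 0.69 (SE 0.05), which also passed the threshold.

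Pgm2, whose enzyme acts mainly on pentose phosphates (chromosome 5, 64092950 to 64128351), had 55.0, 54.3 and 54.8 CPM with DMSO and 55.5, 53.2 and 60.7 CPM with GSK126. The groups overlapped, the highest value was in GSK126 replicate 3, and the log2 fold change was 0.05 (SE 0.07). Without that library the log2 fold change was -0.01. Per kilobase of exon, Pgm1 was 1.97, 1.88 and 1.98 times as abundant as Pgm2 with DMSO and 3.40, 3.45 and 2.94 times as abundant with GSK126. The ratio was lowest in GSK126 replicate 3 within its group, and still above every DMSO sample.

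On the breakdown side, both phosphorylase genes rose. Pygb, the brain-type phosphorylase (chromosome 2, 150786735 to 150831758), had 154, 153 and 155 CPM with DMSO and 174, 182 and 191 CPM with GSK126. The groups did not overlap, but this was the smallest difference among the 7 genes that passed (log2 fold change 0.24, SE 0.05), and its call ended when DMSO replicate 1, 2 or 3 or GSK126 replicate 2 was left out. Pygl, the liver-type phosphorylase (chromosome 12, 70190811 to 70231488), had 53, 47 and 47 reads with DMSO and 124, 109 and 88 reads with GSK126, which is 3.90, 3.34 and 3.48 CPM against 8.65, 7.41 and 6.14 CPM. Its log2 fold change of 1.05 (SE 0.17) was the largest of the 8 and rests on the fewest reads. It was 1.17 without GSK126 replicate 3, the lowest of its group, and 0.92 without GSK126 replicate 1, the highest. Among all tested genes, 1.04% had a log2 fold change at least as high.

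**Figure D2:**
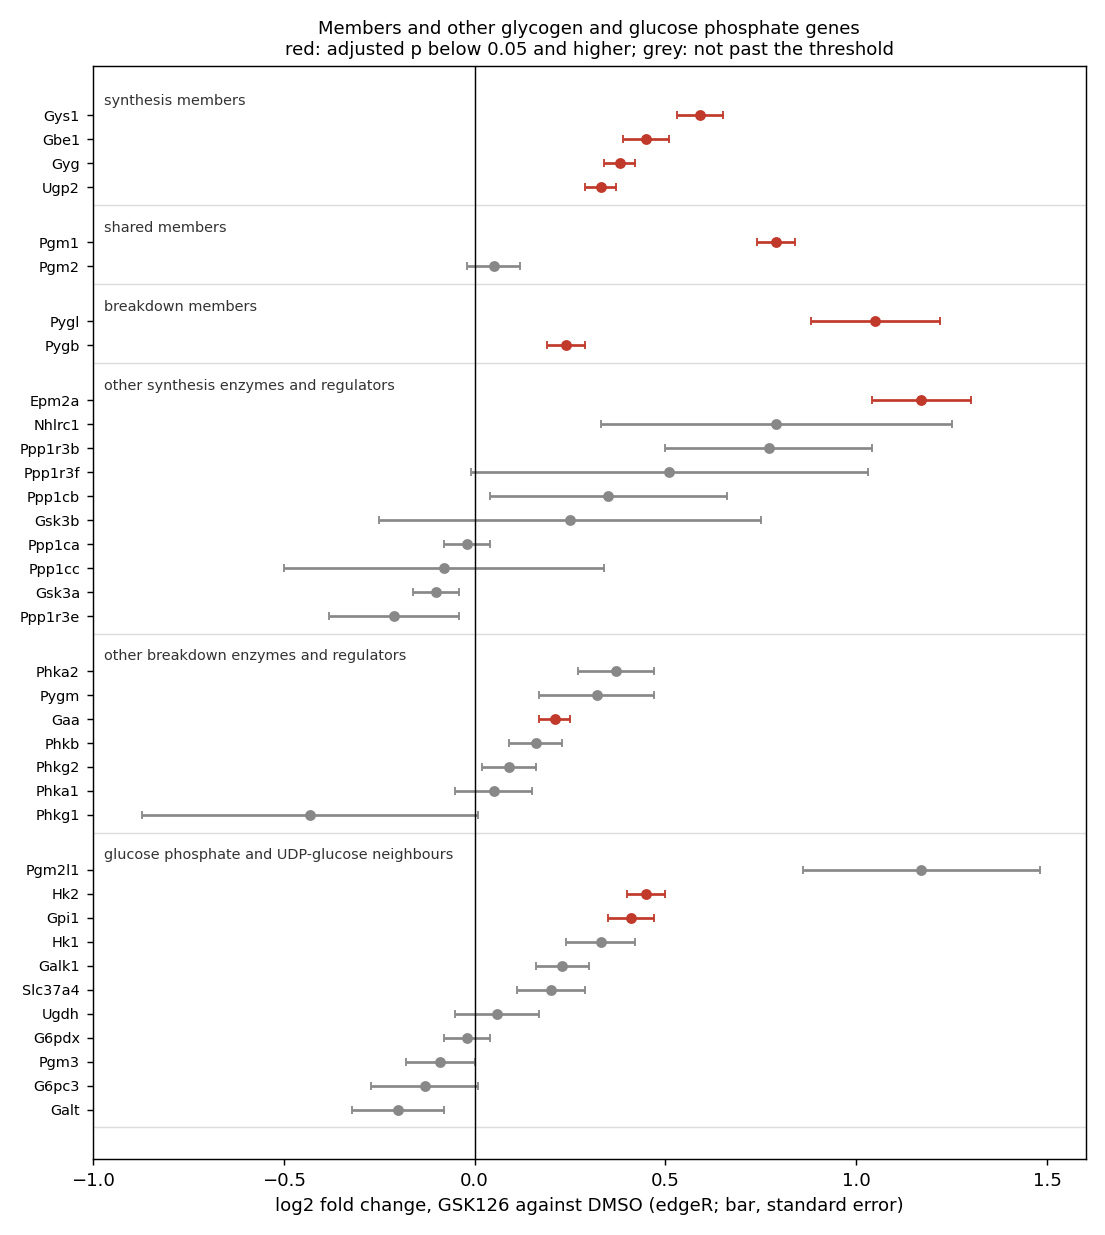
Log2 fold change of GSK126 against DMSO (x axis; points are edgeR estimates and bars standard errors) for the 8 tested members and other tested genes of glycogen and glucose phosphate metabolism, in groups by role. Genes past the threshold (red) all lie to the right of 0, from 0.21 (Gaa) to 1.17 (Epm2a).

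Synthesis and breakdown genes were then set against each other. The median log2 fold change was 0.42 over the 4 tested synthesis genes and 0.65 over the 2 breakdown genes, a difference of -0.23. The sign of that difference depended on which genes stood for breakdown: with 3 more breakdown genes added it was 0.10. In each sample, the median log2 level per kilobase of the synthesis genes minus that of the breakdown genes was 3.03, 3.11 and 3.06 with DMSO and 2.90, 2.89 and 2.97 with GSK126. The group means were 3.07 with DMSO and 2.92 with GSK126, a shift of -0.15 and not -0.23. The median of the synthesis levels lies between Gyg and Gys1, and that of the fold changes between Gbe1 and Gyg. The breakdown median gives Pygl the same weight as Pygb, although Pygl is rare.

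Weighted by abundance, synthase was set against phosphorylase. The 3 phosphorylase genes Pygb, Pygl and the muscle-type Pygm together had 34.6, 34.2 and 35.3 CPM per kilobase of exon with DMSO and 40.5, 41.3 and 43.3 with GSK126, 1.20 times as much. The ratio of Gys1 to this sum was 0.358, 0.351 and 0.333 with DMSO and 0.472, 0.438 and 0.402 with GSK126, 1.26 times the DMSO mean. The groups did not overlap, and GSK126 replicate 3 had the lowest ratio of its group. Against single isoforms the ratio went both ways: Gys1 to Pygb went from a mean of 0.376 ± 0.0113 to 0.481 ± 0.0445, and Gys1 to Pygl from 23.3 ± 1.42 to 17.2 ± 2.22 (SD, n = 3). The overlap of Gys1 with Ruvbl2 bears on each of these ratios.

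**Figure D3:**
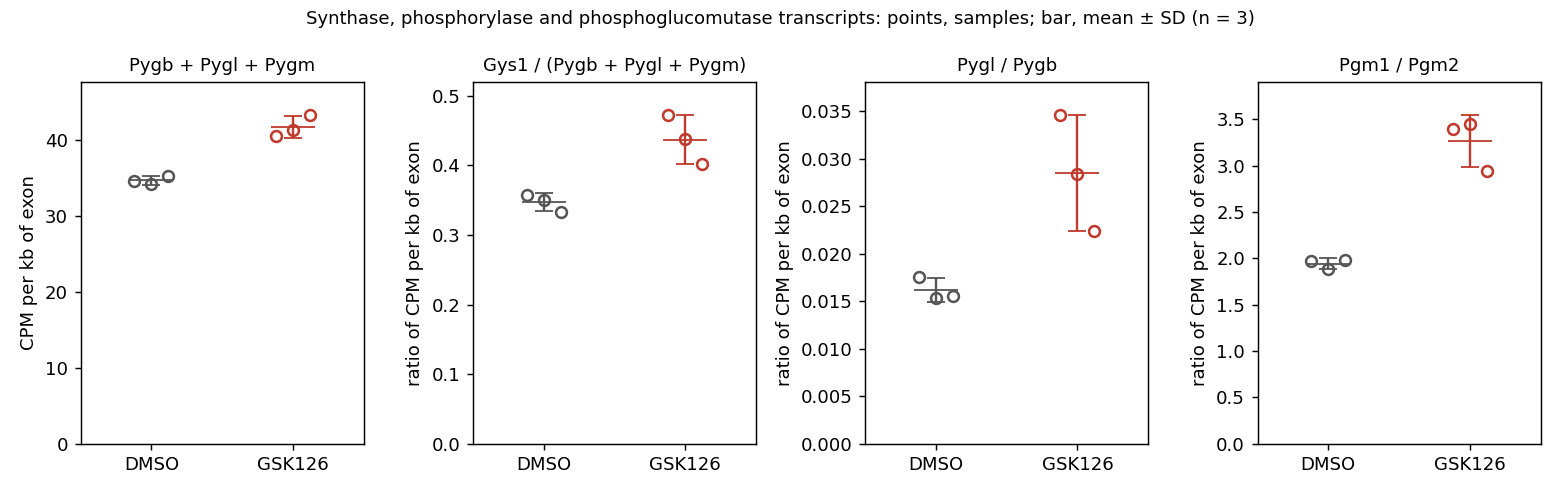
Summed level of the 3 phosphorylase genes (y axis of the first panel, CPM per kilobase of exon) and ratios of glycogen transcripts per kilobase (other panels), by treatment; points are samples and bars are the mean ± SD. In each panel the 3 GSK126 samples lie above the 3 DMSO samples, as for Gys1 to phosphorylase with 0.402 to 0.472 against 0.333 to 0.358.

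The make-up of the phosphorylase transcripts was dominated by Pygb in both groups. By the FPKM values of the authors' deposited table, Pygb held 93.4% ± 0.658 of the sum with DMSO and 92.0% ± 1.18 with GSK126 (SD, n = 3). Pygm held 5.09% ± 0.707 and 5.32% ± 0.734, with overlapping groups. Pygl held 1.66%, 1.44% and 1.46% with DMSO and 3.17%, 2.65% and 2.09% with GSK126, so it stayed the rarest of the 3 in each sample although its level rose 2.07-fold. Pygm itself had 85, 88 and 109 reads with DMSO and 138, 112 and 122 with GSK126 (0.32 on the log2 scale, SE 0.15, edgeR adjusted p = 0.222). Gys2, the liver-type synthase, had 0 reads in every library, so Gys1 was the only synthase gene detected at this depth.

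Per kilobase of exon, the order of the levels with DMSO was Ugp2 (220 to 234 CPM per kilobase), Gyg (96.3 to 97.2), Pgm1 (39.5 to 41.8), Pygb (31.8 to 32.3), Pgm2 (21.0 to 21.2), Gys1 (11.8 to 12.4), Gbe1 (7.52 to 8.45) and Pygl (0.485 to 0.565). No neighbours in this order overlapped between samples, and the order was the same with GSK126. Ugp2 was 18.9 times as abundant as Gys1 and 440 times as abundant as Pygl. The order of Gyg and Pgm1 with GSK126 depended on the length used: by the means of the deposited FPKM, Pgm1 (70.9) lay above Gyg (67.8), with overlapping samples. The lengths implied by the FPKM were 0.998 to 1.86 times the exon lengths used here. Levels of Pgm1 came closer to those of Ugp2 with GSK126, at 0.256, 0.249 and 0.237 of them against 0.179, 0.179 and 0.182 with DMSO.

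The members were read against 36 other genes of the pathway and its neighbours. Of these, 5 had 0 reads in every library, Stbd1 had 4 to 9 reads and was not tested, and 30 were tested. Of those, 5 rose, 0 fell and 25 missed the threshold. The log2 fold change was above 0 for 21 of the 30, and its median was 0.22. Over all 13601 genes tested, 5.87% were called higher and 5.18% lower. The log2 fold change was above 0 for 6791 of them, with a median of 0.0. Among 15 regulators and enzymes of synthesis, 10 were tested and Epm2a rose. That list mixes activating subunits with kinases that inactivate the synthase, so a rise in it has no set direction for synthesis. Epm2a encodes laforin, a phosphatase that acts on glycogen and is mutated in Lafora disease. It had 6.69, 5.48 and 5.41 CPM with DMSO and 12.9, 14.5 and 12.1 CPM with GSK126, without overlap (1.17 on the log2 scale, SE 0.13, edgeR adjusted p = 0.00298). Nhlrc1, which encodes malin, the ubiquitin ligase that partners laforin, had 8 to 17 reads with DMSO and 12 to 31 with GSK126 and did not pass (0.79, SE 0.46, adjusted p = 0.315 by edgeR).

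Of the phosphatase-targeting subunits related to Ppp1r3c, Ppp1r3a, Ppp1r3d and Ppp1r3g had 0 reads in every library. Ppp1r3b had 27, 27 and 20 reads with DMSO and 53, 31 and 49 with GSK126 and did not pass (0.77 on the log2 scale, SE 0.27, edgeR adjusted p = 0.113). Ppp1r3e was the best detected, at 4.35 to 7.04 CPM over all samples, with overlapping groups. Gsk3a, one of the kinases that inactivate glycogen synthase, had a log2 fold change of -0.10 (SE 0.06, adjusted p = 0.338 by edgeR).

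Of the 8 other breakdown genes, all were tested and Gaa, the lysosomal acid alpha-glucosidase, rose from 222, 225 and 227 CPM to 270, 255 and 257 CPM (0.21 on the log2 scale, SE 0.04, edgeR adjusted p = 0.0207). Its call ended when DMSO replicate 1, 2 or 3 or GSK126 replicate 1 was left out (edgeR adjusted p reached 0.0885). Of the phosphorylase kinase subunits, which switch phosphorylase on, none of the 5 genes passed. Their log2 fold changes ran from -0.43 (SE 0.44) for Phkg1 to 0.37 (SE 0.10) for Phka2. The Phkg1 value rests on 6 to 15 reads per library. Phkg1 also shares 630 bp of exons with Sumf2 on the opposite strand, which had 1748 reads in all against 64. Phka2 came nearest (adjusted p = 0.0584 by edgeR).

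Among 13 neighbours in glucose phosphate and UDP-sugar metabolism, 12 were tested and 3 rose. The hexokinase gene Hk2, whose enzyme makes glucose 6-phosphate, rose from 142, 133 and 128 CPM to 185, 185 and 182 CPM (0.45 on the log2 scale, SE 0.05, edgeR adjusted p = 0.00315). Gpi1, the isomerase that draws glucose 6-phosphate into glycolysis, rose from 371, 425 and 417 CPM to 527, 560 and 529 CPM (0.41, SE 0.06, adjusted p = 0.00779 by edgeR). Pgm2l1, which makes the phosphoglucomutase cofactor glucose 1,6-bisphosphate, had 51, 36 and 89 reads with DMSO and 160, 137 and 122 with GSK126 and just missed the threshold (1.17, SE 0.31, adjusted p = 0.0529 by edgeR, and 0.00328 by DESeq2). Of the genes that use UDP-glucose or glucose 6-phosphate elsewhere, Ugdh had a log2 fold change of 0.06 (SE 0.11) and G6pdx, the entry to the pentose phosphate pathway, one of -0.02 (SE 0.06), with adjusted p of 0.756 and 0.899 by edgeR.

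Over the 6 samples, the 3 protein-coding genes with log2 CPM most like Gys1 were Fam162a (Pearson correlation 0.999), Tbl2 (0.997) and Nadk2 (0.997). Predicted genes and clone names were left out of this choice. Of all 10972 tested genes of any type averaging 5 CPM or more, 735 had a correlation with Gys1 above 0.9. The points fall into the 2 treatment groups and share libraries and depth. The members had correlations with Gys1 of 0.993 for Pgm1, 0.993 for Gyg, 0.981 for Gbe1, 0.973 for Ugp2, 0.986 for Pygl, 0.90 for Pygb and 0.289 for Pgm2. Fam162a, Tbl2 and Nadk2 differed in size, with log2 fold changes of 0.93 (SE 0.07), 0.45 (SE 0.06) and 0.25 (SE 0.06).

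**Figure D4:**
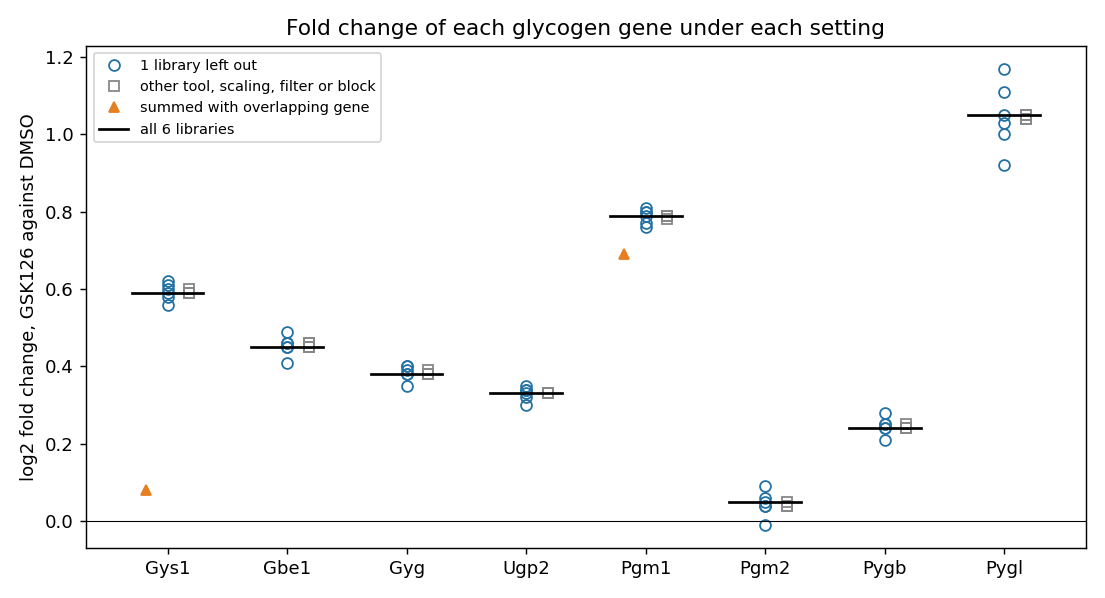
Log2 fold change of each tested glycogen gene (y axis) with all 6 libraries (line), with 1 library left out (circles), with another tool, scaling, filter or a replicate block (squares), and with reads summed over an overlapping gene (triangles, Gys1 and Pgm1). The values stay within 0.20 of the line except the summed value of Gys1, 0.08 against 0.59. That sum takes in all reads of Ruvbl2, not only those of the shared exons.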

How the data were processed

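RNA sequencing read counts per gene were analysed for 3 DMSO and 3 GSK126 samples, grouped by title. The submitters' processing notes name CASAVA 1.8, HISAT2 and the build GRCm38.p4/mm10. Which counter, strand option and gene models were used was not given in the sources used here. The authors deposited raw counts for 54838 genes and FPKM values, which follow the same counts over a gene length not defined in the sources used here.

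Counts were fitted in R 4.3.3 with edgeR 4.0.16 (filterByExpr, TMM, glmQLFit and glmQLFTest, treatment as the only term, Benjamini-Hochberg adjustment over 13601 genes, threshold 0.05). Standard errors derive from the F statistic. CPM uses TMM-scaled library sizes, and CPM per kilobase uses the union of GENCODE M21 exons. A chi-square statistic over genes was 7.512 to 14.17 times its degrees of freedom between replicates, above counting noise. Members, gene lists and tests were chosen with earlier results of these data known. Named genes are all 9 members, the wider-list genes past the threshold, Gys2 and Pygm, and the 3 protein-coding genes most correlated with Gys1. Other genes named were chosen after their values were seen. Some genes of the wider lists entered the counts and are not reported here by name. Alternatives were DESeq2 1.42.0, RLE factors, library totals, no filter, a replicate block and leaving out each library. Summing reads of overlapping genes was added after seeing the data. Promoter windows are RefSeq's, matched by symbol.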

Additional observations from a re-analysis of the deposited data

How the results depend on the processing

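Of the 7 members called higher, 6 or 7 were called under every alternative with direction and threshold kept by Gbe1, Gyg, Ugp2, Pgm1 and Pygl throughout. The count was 6 to 7 with 1 library left out and 0 members were called lower. Gys1 lost its call only when summed with all reads of Ruvbl2, a sum that cannot isolate the shared bases. Pygb lost its call with the replicate block and with 4 of the 6 libraries left out singly. Pgm2, never called, had log2 fold changes from -0.01 (without GSK126 replicate 3) to 0.09 (without GSK126 replicate 2). The calls over all genes fell from 1503 to 899 without a filter on low counts, where 23352 genes were tested, and ran from 529 to 1243 with 1 library left out. Among the 36 other genes, 5 were called higher, 8 with DESeq2, and 3 to 6 with 1 library left out. The synthesis minus breakdown difference of -0.23 was -0.29 with overlapping reads summed, 0.10 with 3 more breakdown genes counted, and -0.26 to -0.20 with 1 library left out; the cause was not tested beyond the genes and reads that enter. Ppp1r3c was not tested, so leaving it out changed nothing. The Pygb share was 92.4% with DMSO by exon length instead of FPKM, against 93.4%, because the lengths differ.

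Deviations from the group mean had correlations of 0.067, 0.021 and -0.042 between same-numbered samples. Between differently numbered samples they were -0.102 to 0.079. DMSO replicates 1 and 2 correlated best with the GSK126 replicate of the same number, and DMSO replicate 3 with GSK126 replicate 2. Values this small cannot decide whether the numbers pair the samples. With the replicate block, 408 genes were called over all genes, 6 members were higher and 3 of the 36 other genes were higher. Depth limits Pygl most among the tested members: it had the fewest reads and the largest standard error (0.17).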

Other observations

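Some glycogen regulators varied between libraries of the same group by more than any tested member did. Among them were Gsk3b and Ppp1cc in both groups, and Ppp1cb with DMSO. Regulators with few reads did so too, such as Nhlrc1 (coefficient of variation 45.0% with DMSO and 47.4% with GSK126) and Ppp1r3f (26.6% and 66.1%). Gsk3b, a kinase that inactivates glycogen synthase, had 1782, 1066 and 2629 reads with DMSO and 837, 2822 and 3256 reads with GSK126, a coefficient of variation of 44.5% and 55.9%. Ppp1cb, a catalytic subunit of protein phosphatase 1, had 4584 and 4642 reads in DMSO replicates 1 and 2 but 1789 in DMSO replicate 3, and 4851 to 5024 with GSK126. Ppp1cc, another catalytic subunit, had 160 reads in DMSO replicate 1 and 171 in GSK126 replicate 1, against 368 to 446 in the other 4 libraries. The related Ppp1ca and Gsk3a varied by 2.44% to 6.53%. For comparison, the median coefficient of variation of the tested members was 2.89% with DMSO and 4.30% with GSK126. The source of the spread in Gsk3b, Ppp1cb and Ppp1cc was not tested.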
